A study of Mus musculus with 8 samples.

Results

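Genes of the mouse Zfp series encode zinc finger proteins, and 280 of them were expressed in the germ cell libraries described here. They were chosen by name and level: the symbol had to be Zfp followed by a number, Zfp42 was left out, and the FPKM had to reach 1 or more in at least 2 of 8 libraries. FPKM are read fragments corrected for transcript length and sequencing depth, so levels can be compared between genes. The table held 363 such genes at any level. Of the 83 that stayed below the limit, 14 were listed at 0 in all 8 libraries. The choice rests on measured levels, so the number expressed is a description and carries no test. Nearest inside the limit, by the second highest library, were Zfp273 (1.001), Zfp251 (1.022), Zfp874b (1.028), Zfp944 (1.029) and Zfp536 (1.036). Nearest outside were Zfp629 (0.9996), Zfp623 (0.9789), a further identifier named Zfp850 (0.9549), Zfp647 (0.954) and Zfp653 (0.9492). Only 4 members reached the limit through the libraries of a single group: Zfp608 and Zfp708 through PGCs, Zfp944 through iPGCs and Zfp764 through PGCLCs.

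The libraries came in 4 groups of 2 biological replicates. Primordial germ cells (PGCs), from which the gametes descend, were taken from Oct4gfpXCD1 embryos at E9.5 without passage. The embryonic germ cell (EGC) lines 4 and 7 were pluripotent lines that had been derived from E9.5 PGCs of the same strain, and each library is a single line at passage 6. The iPGCs were differentiated in hanging drops and the PGCLCs, PGC-like cells, by the published aggregate protocol that the labels credit to Hayashi and colleagues. Both were made from BVSC embryonic stem cells at passage 21. A library was amplified from the RNA of about 250 PGCs, 500 EGCs, 1500 iPGCs or 300 to 500 PGCLCs. Strain and origin go together here: the embryo-derived groups are all Oct4gfpXCD1 and the stem cell-derived groups are all BVSC, so these cannot be told apart between them. The labels used here do not give the sex of the cells.

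Most Zfp proteins bind DNA through tandem C2H2 zinc fingers, each holding a zinc ion between a pair of cysteines and a pair of histidines. Many also carry an N-terminal KRAB box, which recruits the corepressor TRIM28 (KAP1) and, through it, the histone methyltransferase SETDB1, heterochromatin protein 1 and DNA methyltransferases. KRAB zinc finger proteins silence retroelements in early embryos and stem cells, and a few of them, ZFP57 and ZFP445, keep DNA methylation at imprinting control regions while the rest of the genome is demethylated. PGCs later erase those imprints. Zfp genes without a KRAB box are more varied and act in transcription, RNA metabolism, ribosome assembly and mitosis.

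Of the 280 members, 278 are protein coding in GENCODE M21, 1 is a transcribed pseudogene and 1 (Zfp850) has an identifier not found there. A KRAB box was found in 150 of the 278 predicted proteins, against 50 of 75 among the Zfp genes below the limit. C2H2 fingers, counted with a strict pattern, had a median of 10 per protein, 12 with a KRAB box and 7 without. Zfp142 had the most, 36. In 11 proteins the pattern found no finger: Zfp185, Zfp259, Zfp330, Zfp36, Zfp36l1, Zfp36l2, Zfp365, Zfp703, Zfp750, Zfp839 and Zfp935. Among these, Zfp36, Zfp36l1 and Zfp36l2 are the tristetraprolin family, whose CCCH fingers bind AU-rich elements and speed mRNA decay. Members lay on most chromosomes, with 67 on chromosome 7, 34 on chromosome 17 and 24 on chromosome 13. Runs of at least 5 Zfp genes spaced by no more than 500000 bases formed 16 clusters with 154 Zfp genes, of which 120 were members and 96 of those had a KRAB box. One run, chr7:29768552-30169750 (GRCm38), held 14 genes with 13 members, among them Zfp568, Zfp82, Zfp566, Zfp260, Zfp382 and Zfp146. Genes of such runs arose by duplication and resemble each other, and 50-base reads may be shared between them, so their FPKM are less certain than those of single genes.

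Levels were low for most of the family. The median of the members' mean FPKM over 8 libraries was 3.14, against 6.57 for all 11083 genes that passed the same filter. A mean of 10 FPKM or more was found for 35 members, 5 to 10 for 60 and under 5 for 185, of which 93 were under 2. The median was 2.32 for KRAB members and 5.03 for members without the box, and 4 of the 20 highest had one. In all 8 libraries, 88 members were at 1 FPKM or more. By library, members at 1 FPKM or more numbered 179 and 172 in PGCs, 182 and 212 in EGCs, 225 and 223 in iPGCs, and 209 and 214 in PGCLCs. PGCs thus had the fewest and iPGCs the most, and the same order held for all tested genes, of which 71.3% and 70.8% reached 1 FPKM in PGCs and 87.1% and 88.9% in iPGCs. Summed over the members, Zfp RNA made up 0.912% and 0.869% of all FPKM in PGCs, 0.831% and 0.769% in EGCs, 0.78% and 0.665% in iPGCs, and 0.721% and 0.773% in PGCLCs. The share was highest in both PGC libraries, and those of the other groups overlapped. In bulk RNA of this kind, fewer cells of a type and less RNA per cell cannot be told apart.

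Zfp106, a large RNA-binding protein needed by motor neurons, was the highest member, at 92 and 146 FPKM in PGCs, 95 and 129 in EGCs, 235 and 93.5 in iPGCs, and 260 and 135 in PGCLCs. It ranked first in 7 libraries. PGCLCs lay above EGCs, and all other pairs of groups overlapped. Zfp207 (BuGZ), which binds microtubules and helps chromosomes align in mitosis, stood at 41.7 and 140 FPKM in PGCs, 112 and 99.6 in EGCs, 178 and 91.9 in iPGCs, and 116 and 115 in PGCLCs, and ranked first in EGC line 4. Next in order of mean level came Zfp57, Zfp462, Zfp644, Zfp346, Zfp710, Zfp568, Zfp414, Zfp280d, Zfp259, Zfp664, Zfp26, Zfp263 and Zfp655. Zfp644, a partner of the histone methyltransferases G9a and GLP, had 42.9 and 45.1 FPKM in PGCs, 35.9 and 39.3 in EGCs, 38.6 and 17.2 in iPGCs, and 19.4 and 19.9 in PGCLCs. Both PGC libraries lay above the other 6, by a margin smaller than the gap between the iPGC libraries.

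**Figure D1:**
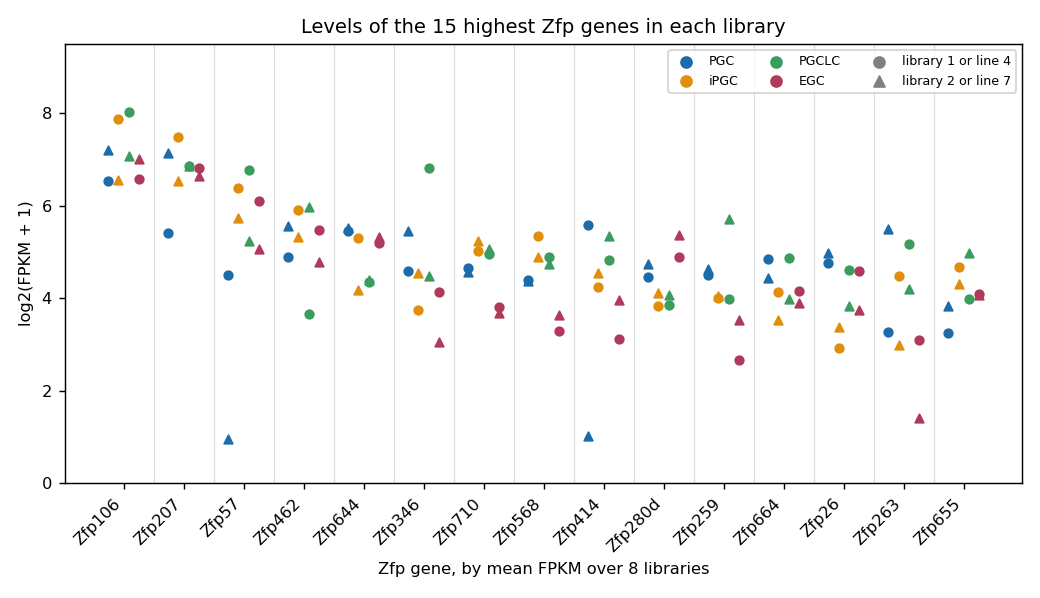
Levels of the 15 Zfp genes with the highest mean FPKM, on a scale of log2(FPKM + 1), for each of 8 libraries (colour, group; circle, library 1 or EGC line 4; triangle, library 2 or EGC line 7). Zfp106 and Zfp207 lead in nearly every library; Zfp57 and Zfp414 are each near the bottom in PGC library 2 (0.936 and 1.03 FPKM).

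Before any comparison, the spread between the libraries of a group has to be set out, because it was wide, as it was for all genes. Over the members, Pearson's r of log2(FPKM + 1) between the 2 libraries of a group was 0.514 in PGCs, 0.663 in EGCs, 0.797 in iPGCs, and 0.635 in PGCLCs, against 0.71, 0.784, 0.882 and 0.794 over all tested genes. Each is a description across genes, which are no replicates, and carries no p. Over the members, the PGC pair correlated no better than PGC libraries did with those of other groups, where the mean r was 0.553 with iPGCs, 0.53 with PGCLCs and 0.53 with EGCs. Over all tested genes these means were 0.692, 0.675 and 0.656, under the 0.71 of the PGC pair. PGC library 2 and PGCLC library 2 reached 0.72. Among members with a group mean of 1 FPKM or more, the pair differed by over 2 on the log2 scale for 49 of 198 (24.7%) in PGCs, 4 of 234 (1.71%) in iPGCs, 28 of 223 (12.6%) in PGCLCs and 17 of 206 (8.25%) in EGCs. Over all tested genes the shares were 22.2%, 2.57%, 10.3% and 9.84%. Within PGCs the members were at 18.3% for means of 1 to 5 FPKM, 27.7% for 5 to 10 and 36.2% for 10 or more, against 23%, 25.3% and 20.1% of all genes.

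Single genes show what this means. Zfp558 had 52.9 FPKM in PGC library 1 and 0.347 in library 2. Zfp583 had 0.573 and 50.7, the opposite order. Zfp672 stood at 26.9 in library 1 and was listed at 0 in library 2. Zfp354c, Zfp952 and Zfp414 were likewise high in one PGC library only, with 31.2 and 0.103, 0.178 and 31.2, and 47.1 and 1.03 FPKM. Outside PGCs the widest pairs were Zfp771 in iPGCs (listed at 0, then 13.9), Zfp949 in PGCLCs (0.0338 and 19.6) and Zfp354a in EGC lines 4 and 7 (0.334 and 28.6). PGC library 1 also had the highest summed levels of blood, yolk sac, fibroblast, mesoderm and neural markers. Of 10 blood and myeloid genes it had 8 at 1 FPKM or more and a summed level of 159 FPKM (7.21 to 38.6 in the other 7), with Tyrobp listed at 0. PGC library 2 had 2 of the 10 and a summed level of 14.4 FPKM, within the range of the in vitro libraries. S100a9, a neutrophil gene, had 15.6 and 8.77 FPKM in the PGC libraries and Fcer1g, an immune receptor subunit, 21.4 and 4.85. Both were listed at 0 in the other 6 libraries. Other genes of this list did not follow them. Laptm5 had 1.87 and a listed 0 in PGCs and 33.4 and 9.6 in EGCs. Cd68 had 24.1 and a listed 0 in PGCs and 3.79 and 16.3 in iPGCs. S100a9 was the only blood gene called, lower in EGCs, iPGCs and PGCLCs than in PGCs (adjusted p 0.0301, 0.0256 and 0.0273). Leaving out PGC library 1 was among the 10 of 16, 11 of 17 and 11 of 17 settings that ended these calls. Of 10 yolk sac and visceral endoderm genes PGC library 1 had 7, summing to 216 FPKM (0.796 to 13.7), with Amn and Sox17 listed at 0. Of 8 fibroblast genes it had 5, summing to 18 FPKM (0.0232 to 3.7), with Thy1 listed at 0. Of 7 mesoderm genes PGC library 1 had 4 and PGC library 2 had 3, with Mesp1 and Mixl1 listed at 0 in both. They summed to 56.6 and 23.9 FPKM, against 1.1 to 16.6 in the in vitro libraries, so here PGC library 2 was raised too. The 5 neural genes summed to 66.5 and 0.0934 FPKM in the PGC libraries, and to 53.9 in EGC line 4. The part of such cells in the Zfp levels of either PGC library was not tested. Of 9 PGC markers, 8 and 9 were at 1 FPKM or more in the PGC libraries, 8 or 9 in iPGCs and PGCLCs, and 7 and 8 in EGCs, so this count did not set PGCs apart. Their summed levels did set PGCs above EGCs, at 621 and 1451 against 212 and 320 FPKM. The stem cell-derived libraries had 760 to 1605. Compared with PGCs, 6 of the 9 had an unadjusted p under 0.05 in EGCs (limma), where 17.2% of all genes did. That number was 2 for iPGCs and 0 for PGCLCs. Only Dppa3 was called, lower in EGCs (adjusted p 0.0488), and other settings were not tried for it. Summed over 10 stem cell markers, PGCs had 155 and 300 FPKM, EGCs 488 and 662, and iPGCs and PGCLCs 652 to 848. Called higher than in PGCs were Tdgf1 in EGCs, and Dppa5a and Nanog in iPGCs. In PGCLCs these were Dppa5a, Fgf4, Nanog and Tdgf1. Of all genes 0.74%, 0.794% and 1.06% were called. Sox2 went the other way, at 30.5 and 31.8 in PGCs and 10.8 to 26.8 elsewhere. Other settings were not tried for these. Approximate depths, read from the smallest steps of FPKM, ran from 2.18 M reads in iPGC library 1 to 17.5 M in EGC line 7, so the shallow library was not one of the pair that differed most.

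**Figure D2:**
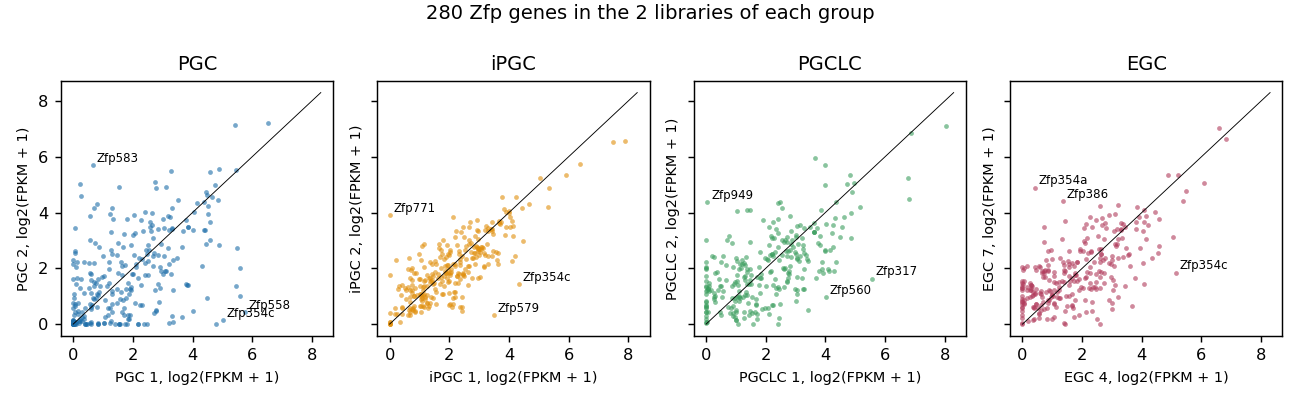
Levels of the 280 Zfp genes, as log2(FPKM + 1), in the first against the second library of each group, with the line of equal values and the 3 widest pairs named. Points scatter most in PGCs, where many genes are high in one library and near 0 in the other, and least in iPGCs (r of 0.514 and 0.797).

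The design compares each in vitro group with PGCs, and the in vitro groups with each other. With 2 libraries a group, limma on log2(FPKM + 1) called 0 of 280 members in any of the 6 comparisons, and 0 in the test of any difference among the 4 groups, at an adjusted p under 0.05. Among all 11083 tested genes the calls were also few. For EGCs against PGCs they were 0.74% of genes, for iPGCs against PGCs 0.794%, and for PGCLCs against PGCs 1.06%. For PGCLCs against iPGCs they were 0.018%, for EGCs against iPGCs 0.117%, for EGCs against PGCLCs 0.0993%, and for any difference 0.505%. At an unadjusted p under 0.05, members numbered 32 (11.4%) for EGCs against PGCs, where 17.2% of all genes passed. They numbered 35 (12.5%) for iPGCs against PGCs and 36 (12.9%) for PGCLCs against PGCs, where 19.5% of all genes passed in each case. Between the in vitro groups they were 8 (2.86%) for PGCLCs against iPGCs, 14 (5%) for EGCs against iPGCs and 25 (8.93%) for EGCs against PGCLCs, where 4.68%, 10.3% and 13.9% of all genes passed. For any difference 24 members (8.57%) passed, and 19.2% of all genes. In each test the share of members was under that of all genes. Left without the members that passed the limit through a single group, 276 remained. Of these, 31, 34 and 34 passed in EGCs, iPGCs and PGCLCs against PGCs, and 7, 14 and 24 between the in vitro groups in the order above. A missing call does not show that levels were equal. The smallest log2 difference called in any gene was 2.44, 2.52 and 2.45 in the comparisons with PGCs, the median standard error of a member's difference was 0.69, and the largest member differences were 3.65, 3.33 and 3.35, in size and before the subtraction described next.

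Differences between groups are given below relative to the median of all tested genes in that comparison, which was 0.07 for EGCs against PGCs, 0.47 for iPGCs against PGCs, 0.44 for PGCLCs against PGCs, -0.40 for EGCs against iPGCs and -0.38 for EGCs against PGCLCs on the log2 scale. The adjusted p tests the difference before that subtraction. On this scale the members as a set stayed near other genes. Their median was 0.08 for EGCs against PGCs, -0.14 for iPGCs and for PGCLCs against PGCs, -0.01 for PGCLCs against iPGCs, 0.12 for EGCs against iPGCs and 0.22 for EGCs against PGCLCs. Groups that did not overlap were common at 2 libraries each. EGCs lay above PGCs in 62 members (22.1%; 24.1% of all genes) and below in 53 (18.9%; 20%). iPGCs lay above PGCs in 100 (35.7%; 39.4%) and below in 39 (13.9%; 13.1%), and PGCLCs above in 77 (27.5%; 33.5%) and below in 41 (14.6%; 11.8%). PGCLCs lay above iPGCs in 27 (9.64%; 17.3%) and below in 54 (19.3%; 19.6%). EGCs lay above iPGCs in 42 (15%; 10.8%) and below in 76 (27.1%; 39.5%), and above PGCLCs in 49 (17.5%; 11.8%) and below in 67 (23.9%; 34.2%). These counts are not tests, and they include the members that passed the limit through a single group. The 3 comparisons with PGCs share the PGC libraries, and those with EGCs the EGC libraries. Members with a KRAB box had medians of 0.23, -0.04 and -0.11 for EGCs, iPGCs and PGCLCs against PGCs, and members without one had -0.08, -0.29 and -0.17.

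**Figure D3:**
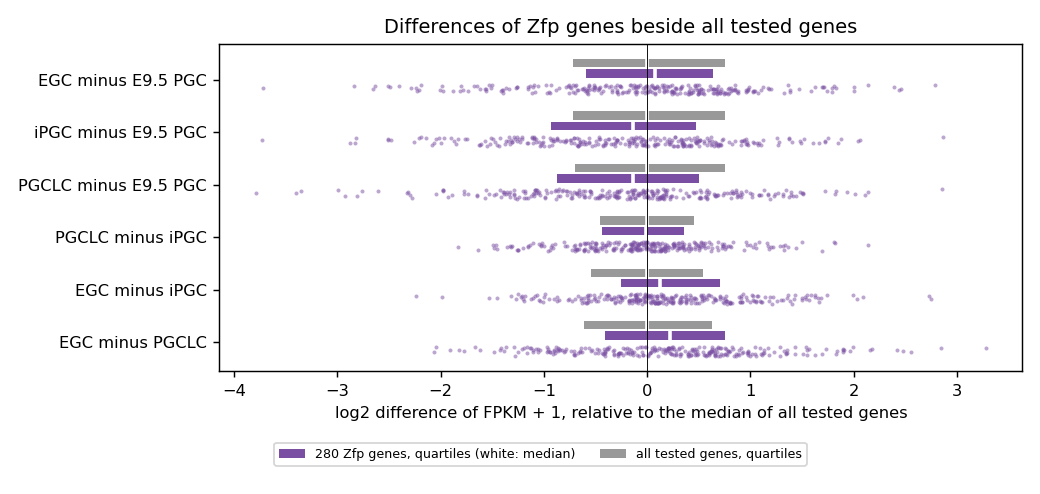
Relative log2 differences of FPKM + 1 in each comparison: points, the 280 Zfp genes; purple bars, their quartiles; grey bars, quartiles of all 11083 tested genes; white marks, medians. The quartile ranges overlap in all 6 comparisons, and the members' medians lie between -0.14 and 0.22.

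The imprint protectors Zfp57 and Zfp445 bear on the series' subject, imprints in germ cells. Zfp57 (chr17:37001163-37010635, plus strand) had 21.6 and 0.936 FPKM in PGCs, 67.4 and 32.4 in EGCs, 82.3 and 52.2 in iPGCs, and 109 and 37 in PGCLCs. Both PGC libraries lay below the other 6, and they also lay far from each other. Relative to the median gene, Zfp57 was higher by 2.86 ± 1.06 (SE) on the log2 scale in iPGCs, 2.85 ± 1.06 in PGCLCs and 2.79 ± 1.06 in EGCs than in PGCs. Adjusted p was 0.146, 0.143 and 0.224 (limma), and these were the largest positive member differences in their comparisons under the naming rule. The size depends on the PGC libraries: without PGC library 1 the differences were 4.64 in iPGCs and 4.65 in PGCLCs, and without PGC library 2 they were 1.00 in both. For EGCs the differences were 4.57 and 0.92. Zfp445 (chr9:122844529-122866006, minus strand) had 11.5 and 5.72 FPKM in PGCs, 11.2 and 3.25 in EGCs, 5.76 and 4.12 in iPGCs, and 15.9 and 2.93 in PGCLCs, with all groups overlapping. The mates of these proteins were abundant in every group. Trim28 had 722 and 708 FPKM in PGCs, 429 and 412 in EGCs, 460 and 764 in iPGCs, and 599 and 409 in PGCLCs, and Setdb1 ranged from 9.47 to 23.

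A list of the KRAB corepressor machinery held 36 tested entries, with Atf7ip under 2 identifiers and including 2610044O15Rik8, which is no known part of the complex. Called higher than in PGCs were Dnmt3l and Dnmt3b in EGCs, and Dnmt3l alone in iPGCs and in PGCLCs. Of all tested genes 0.74%, 0.794% and 1.06% were called in these comparisons. Unadjusted p was under 0.05 for 8, 10 and 8 of the 36 entries, against 17.2%, 19.5% and 19.5% of all genes. No entry was called lower, and 0 entries were called between the in vitro groups. There 1, 5 and 7 had an unadjusted p under 0.05, against 4.68%, 10.3% and 13.9% of all genes. Dnmt3l, a cofactor of de novo DNA methylation, was at a listed 0 in the PGC libraries and had 14.1 and 42.5 FPKM in EGCs, 51.8 and 53.4 in iPGCs, and 13.4 and 15.6 in PGCLCs (adjusted p 0.0239, 0.0107 and 0.0351). Dnmt3b, a de novo methyltransferase, had 4.52 and 0.141 in PGCs and 66.1 and 38.8 in EGCs (adjusted p 0.0488). Of the other settings tried, 3 of 17 ended the Dnmt3l call in iPGCs (adjusted p 0.00284 to 0.171), 11 of 17 that in PGCLCs (0.00933 to 0.336) and 9 of 16 that in EGCs (0.006 to 0.392). The Dnmt3b call in EGCs ended in 13 of 16 (0.0173 to 0.392). Fitting only the groups compared, or leaving out either iPGC library, ended all 4, and none of these settings reversed a direction. The other entries, among them Trim28, Setdb1, Dnmt1 and Dnmt3a, were not called. Zinc finger genes of other families, 58 in number (Zscan, Zkscan, Zbtb and the like), gave 0 calls in all 6 comparisons. At an unadjusted p under 0.05 stood from 1, in PGCLCs against iPGCs, to 9, in EGCs against PGCs. Of all genes 4.68% and 17.2% passed there.

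Among KRAB proteins that bind retroelements, none of 5 was called. At an unadjusted p under 0.05 stood 1 in iPGCs and 1 in PGCLCs against PGCs, where 19.5% of all genes did in each. None stood there in the other comparisons. Zfp809, which recognises the primer binding site of murine leukemia virus and silences its proviruses in stem cells, had 0.0391 and 4.9 FPKM in PGCs, 5.77 and 11.2 in EGCs, 13.5 and 8.14 in iPGCs, and 11.4 and 8.77 in PGCLCs. Both PGC libraries lay below the other 6. The difference of iPGCs from PGCs was 1.75 ± 0.84 (adjusted p 0.202), with 0.50 when PGC library 1 was left out and 2.91 when PGC library 2 was. Zfp961 was the most even of the 5, between 8.13 and 18.9 FPKM with all groups overlapping. Zfp819 had 0.761 and 1.04 in PGCs, 6.96 and 0.46 in EGCs, 8.81 and 4.47 in iPGCs, and 1.15 and 2.92 in PGCLCs, so the EGC lines spanned nearly the whole range. Zfp932 ran from 0.503 to 5.75. Zfp708 ran from near 0 to 2.68 with both PGC libraries on top, as it had passed the limit only through PGCs.

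Of 8 genes tied to pluripotency or reprogramming, 0 were called. At most 2 had an unadjusted p under 0.05, in iPGCs against PGCs, where 19.5% of all genes did. Zfp462, a many-fingered protein that restrains differentiation genes in stem cells, was the highest, with 28.7 and 46.3 FPKM in PGCs, 43.2 and 26.5 in EGCs, 59.4 and 39.3 in iPGCs, and 11.6 and 61.8 in PGCLCs, and the PGCLC libraries alone covered all other values. Zfp217, a partner of LSD1 and CoREST, had 2.16 and 5.88 in PGCs, 2.58 and 3.7 in EGCs, 11.8 and 11.2 in iPGCs, and 10.1 and 10.3 in PGCLCs. All 4 stem cell-derived libraries lay above all 4 embryo-derived ones. Zfp281, which acts in the exit from naive pluripotency, was highest in iPGCs at 11.8 and 12, with 3.98 to 9.99 elsewhere. Zfp322a, a regulator of Oct4 and Nanog, was highest in PGCs at 13.4 and 10.2, with 3.03 to 8.75 elsewhere. Zfp296, Zfp143 and Zfp706 ran between 3.22 and 13.8 FPKM, and in none of them did 1 group lie apart from all others.

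Genes of RNA metabolism and translation included several of the better expressed members, and 0 of 11 tested were called. At most 1 had an unadjusted p under 0.05 in a comparison, where 4.68% to 19.5% of all genes did. Zfp346, which binds double-stranded RNA, had 23.1 and 42.8 FPKM in PGCs, 16.5 and 7.34 in EGCs, 12.5 and 22.5 in iPGCs, and 112 and 21.2 in PGCLCs, and its high PGCLC mean came from library 1. EGCs against PGCLCs gave -1.67 ± 0.80 (adjusted p 0.322). Zfp598, a ubiquitin ligase that marks collided ribosomes, was even at 7.89 to 17.6 FPKM. Zfp593, which acts in assembly of the large ribosomal subunit, had 3.03 and 8.06 in PGCs and was listed at 0 in EGC line 4 with 0.869 in line 7, the lowest group. Zfp622, of the same process, ran from 4.76 to 28.7, the top value being PGC library 2. Of the mRNA decay factors, Zfp36l2 was lowest in PGCs, at 2.1 and 2.38, and highest in PGCLCs, at 6.29 and 7, while for Zfp36 all groups overlapped.

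Zfp385a, an RNA-binding partner of p53, had 1.08 and 0.203 FPKM in PGCs, 0.592 and 2.52 in EGCs, 5.43 and 11.7 in iPGCs, and 3.67 and 4.73 in PGCLCs. Its stem cell-derived libraries lay above the embryo-derived ones. The difference of iPGCs was 2.04 ± 0.69 from PGCs (adjusted p 0.117), and that of EGCs from iPGCs was -1.53 ± 0.69 (0.4).

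Of 13 genes of chromatin complexes and general transcription, 0 were called. At most 2 had an unadjusted p under 0.05, in EGCs against PGCs, where 17.2% of all genes did. Zfp532, Zfp592 and Zfp687 are known to form a complex with ZMYND8, and their levels did not run together. Zfp532 was lowest in iPGCs, at 8.16 and 9.31, with 11 to 22 in the other libraries. Zfp592 ran from 2.03 to 12.3 and Zfp687 from 1.36 to 9.49, neither with a group apart from the rest. Zfp518b, which binds G9a, had 3.97 and 0.605 in PGCs, 22.5 and 4.92 in EGCs, 4.13 and 4.05 in iPGCs, and 3.64 and 4.78 in PGCLCs, so line 4 stood alone and line 7 barely above the other groups. Zfp410, known as an activator of Chd4, ran from 0.0244 to 6.56 with overlap.

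Of 9 tested developmental regulators, 0 were called. Without Zfp608, which had passed the limit only through PGCs, 3 of 8 in EGCs, 1 of 8 in iPGCs and 2 of 8 in PGCLCs had an unadjusted p under 0.05 against PGCs, where 17.2%, 19.5% and 19.5% of all genes did. Zfp521, a regulator of blood and neural progenitors on chromosome 18 with 27 fingers and no KRAB box, had 23.3 and 11.7 FPKM in PGCs, 0.294 and 0.501 in EGCs, 0.458 and 1.31 in iPGCs, and 0.0595 and 1.79 in PGCLCs. Both PGC libraries lay above all 6 others. Relative to the median gene its differences from PGCs were -3.72 ± 0.70 in EGCs, -3.73 ± 0.70 in iPGCs and -3.79 ± 0.70 in PGCLCs. Adjusted p was 0.0659, 0.0731 and 0.0628, and 0.0934 for any difference, the lowest of all members in these 4 tests. The part of blood or yolk sac cells in the Zfp521 level was not tested. With each library left out in turn, the differences of Zfp521 from PGCs stayed between -4.48 and -3.01.

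Zfp608 and Zfp609 are paralogues. Zfp609, which works with the cohesin loader and Integrator, had 8.24 and 3.44 FPKM in PGCs, 40.3 and 20.2 in EGCs, 8.74 and 8.99 in iPGCs, and 7.25 and 10.5 in PGCLCs. Both EGC lines lay above the other 6 libraries. The differences were 2.14 ± 0.60 from PGCs and 1.99 ± 0.60 from iPGCs (adjusted p 0.123 and 0.428). Zfp608 was highest in PGCs, with 3 and 2.48 in PGCs and 0.0199 to 0.752 elsewhere. Zfp423, the paralogue of Zfp521 and a regulator of fat and cerebellum development, had 13.3 and 1.65 in PGCs, 3.2 and 9.95 in EGCs, 4.4 and 0.512 in iPGCs, and 1.02 and 0.36 in PGCLCs. Its level thus did not follow that of Zfp521. EGCs stood 2.42 ± 0.99 above PGCLCs (adjusted p 0.409).

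Several members outside the role lists set PGCs apart. In 20 members (7.14%) both PGC libraries lay above the other 6, where 6.05% of all genes did, and in 37 (13.2%) both lay below, where 15.2% of all genes did. Neither share is far from that of all genes. The 20 include Zfp608 and Zfp708, which had passed the expression limit only through PGCs and so had to lie above. Highest beside Zfp521 were Zfp644, Zfp26, Zfp871, Zfp511 and Zfp422. Zfp511 (chr7:140036391-140040602, plus strand) had 16.8 and 19.1 FPKM in PGCs, 1.64 and 2.84 in EGCs, 3.53 and 7.74 in iPGCs, and 5.75 and 5.22 in PGCLCs. Here the PGC libraries were close to each other, and EGCs differed from PGCs by -2.64 ± 0.59 (adjusted p 0.0883). Zfp422 (Krox-26), first described in tooth development, had 19.8 and 9.37 in PGCs, 2.16 and 2.14 in EGCs, 3.59 and 1.75 in iPGCs, and 0.373 and 1.56 in PGCLCs. PGCLCs differed from PGCs by -3.40 ± 0.66 (adjusted p 0.0715).

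Zfp618, a partner of the hydroxymethylated-DNA reader UHRF2, had 6.63 and 6.38 FPKM in PGCs, 0.112 and 1.53 in EGCs, 0.593 and 0.243 in iPGCs, and 1.09 and a listed 0 in PGCLCs. The KRAB gene Zfp563 had 7.24 and 4.48 in PGCs, 0.969 and 1.05 in EGCs, 0.337 and 0.274 in iPGCs, and 0.0571 and 0.353 in PGCLCs. Neither passed 1.53 FPKM outside PGCs. iPGCs differed from PGCs by -2.88 ± 0.65 for Zfp618 and -2.83 ± 0.53 for Zfp563 (adjusted p 0.112 and 0.0802). Among the 37 that were lowest in PGCs were, beside Zfp57 and Zfp809, Zfp382, Zfp763, Zfp459 and Zfp2. Zfp2 had 0.179 and 0.144 in PGCs, 1.96 and 1.64 in EGCs, 3.96 and 4.67 in iPGCs, and 3.49 and 7.95 in PGCLCs, a rank order with no overlap between PGCs, EGCs and the stem cell-derived groups. PGCLCs stood 2.01 ± 0.60 above PGCs (adjusted p 0.0823). Zfp459, with 0.0388 and 0.344 in PGCs and 6.98 and 4.96 in PGCLCs, stood 2.11 ± 0.64 above (0.0876).

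In EGCs, 9 members (3.21%) lay above the other 6 libraries, where 3.08% of all genes did, and 18 (6.43%) lay below, where 9.11% did. Above were Zfp280d, Zfp609, Zfp518b, Zfp395, Zfp668, Zfp397, Zfp661, Zfp341 and Zfp51. Zfp668, a protein linked to DNA repair, had 0.598 and 0.921 FPKM in PGCs, 14.4 and 5.57 in EGCs, 0.542 and 1.53 in iPGCs, and 1.1 and 1.65 in PGCLCs. EGCs stood 2.46 ± 0.65 above PGCs, 2.75 ± 0.65 above iPGCs and 2.48 ± 0.65 above PGCLCs (adjusted p 0.108, 0.308 and 0.239). Of the 18 that were lowest in EGCs, Zfp710 and Zfp568 had the highest levels. Zfp568 (chr7:29983955-30028282, plus strand) is a KRAB protein that represses a placental transcript of Igf2 and is needed for gastrulation. It had 19.9 and 19.7 in PGCs, 8.81 and 11.4 in EGCs, 39.5 and 28.8 in iPGCs, and 28.6 and 25.7 in PGCLCs. The 4 groups followed in the order iPGCs, PGCLCs, PGCs and EGCs with no overlap, though iPGC library 2 and PGCLC library 1 nearly met.

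Zfp710 (chr7:80024814-80094173, plus strand) had 24.1 and 22.8 FPKM in PGCs, 13 and 11.8 in EGCs, 31.7 and 36.7 in iPGCs, and 29.9 and 32.3 in PGCLCs. The libraries of each group lay close together, and the order was the same apart from an overlap of iPGCs and PGCLCs. Zfp566, in the run of genes that holds Zfp568, had 4.6 and 4.71 in PGCs, 1.18 and 1.81 in EGCs, 2.29 and 5.24 in iPGCs, and 18.2 and 5.74 in PGCLCs. Within the 13 members of that run the median relative difference was -0.46 for EGCs against PGCs, 0.19 for iPGCs against PGCs and close to 0 for PGCLCs against PGCs. Over all clusters such medians ran both ways, from -1.62 to 0.98 for EGCs against PGCs.

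iPGCs and PGCLCs both came from BVSC stem cells. The counts of pairs without overlap given above set 27 members (9.64%; 17.3% of all genes) higher and 54 (19.3%; 19.6%) lower in PGCLCs than in iPGCs. To lie apart from all other libraries is a stricter rule, so by its definition no more members can meet it. In 12 members (4.29%) both iPGC libraries lay above the other 6, where 6.31% of all genes did, and in 3 (1.07%: Zfp26, Zfp532 and Zfp292) they lay below, where 1.15% did. In 8 (2.86%) both PGCLC libraries lay above, where 6.57% did, and in 8 (2.86%) below, where 1.82% did. Zfp944 among those highest in iPGCs and Zfp764 among those highest in PGCLCs had passed the limit only through that group. They had to lie above. Under the naming rule, Zfp507 and Zfp64 had the largest upward differences of PGCLCs from iPGCs. Zfp64 had 5.3 and 10.2 FPKM in iPGCs and 25.7 and 31.6 in PGCLCs, a difference of 1.81 ± 0.71, and Zfp507 had 3.33 and 3.5 against 27.8 and 7.4, a difference of 1.82 ± 0.72. The largest downward one was Zfp882, with 3.64 and 9.02 against 0.414 and 1.59, a difference of -1.83 ± 0.69. The lowest adjusted p of a member, 0.812, belonged to Zfp764, which had passed the expression limit only through PGCLCs and so had to differ. The 276 members that had not passed through a single group all had an adjusted p of 1 here.

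Some members followed strain and origin together. In 9 members (3.21%) all 4 Oct4gfpXCD1 libraries, PGCs and EGCs, lay above all 4 BVSC libraries, where 1.07% of all genes did. They were Zfp280d, Zfp871, Zfp280c, Zfp292, Zfp266, Zfp518a, Zfp738, Zfp563 and Zfp334. In 11 (3.93%) they lay below, where 10.4% of all genes did: Zfp710, Zfp568, Zfp217, Zfp385a, Zfp933, Zfp39, Zfp2, Zfp418, Zfp938, Zfp46 and Zfp111. These counts were not tested. The clearest was Zfp280c (chrX:48541625-48594504, minus strand), with 15.5 and 15.4 FPKM in PGCs, 13.4 and 17.2 in EGCs, 1.86 and 2.64 in iPGCs, and 0.303 and 2.64 in PGCLCs. The embryo-derived libraries lay close to each other and far above the rest. The difference from PGCs was -2.82 ± 0.65 in iPGCs (adjusted p 0.118) and -3.35 ± 0.65 in PGCLCs (0.0715), and EGCs stood 2.73 ± 0.65 above iPGCs (0.311) and 3.28 ± 0.65 above PGCLCs (0.155).

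Its relative Zfp280d (chr9:72274860-72363777, plus strand) showed the same split at a smaller size, with 20.9 and 25.9 FPKM in PGCs, 28.6 and 40.1 in EGCs, 13.2 and 16.4 in iPGCs, and 13.5 and 15.9 in PGCLCs. The third member, Zfp280b (chr10:76032650-76043234, plus strand), did not, with 5.23 and 10.7 in PGCs, 4 and 10.2 in EGCs, 9.69 and 9.75 in iPGCs, and 13.2 and 7.9 in PGCLCs. Zfp871 (chr17:32765496-32788287, minus strand), a KRAB gene in the same run as Zfp563, had 22.2 and 17.7 in PGCs, 17.4 and 10.8 in EGCs, 6.29 and 4.8 in iPGCs, and 4.34 and 8.58 in PGCLCs. Zfp280c is X-linked, and since the labels used here do not give sex, its part in this split was not tested. Also X-linked are Zfp182, Zfp185, Zfp275 and Zfp711. In those 4, none above 5.03 FPKM, the embryo-derived and stem cell-derived libraries overlapped.

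**Figure D4:**
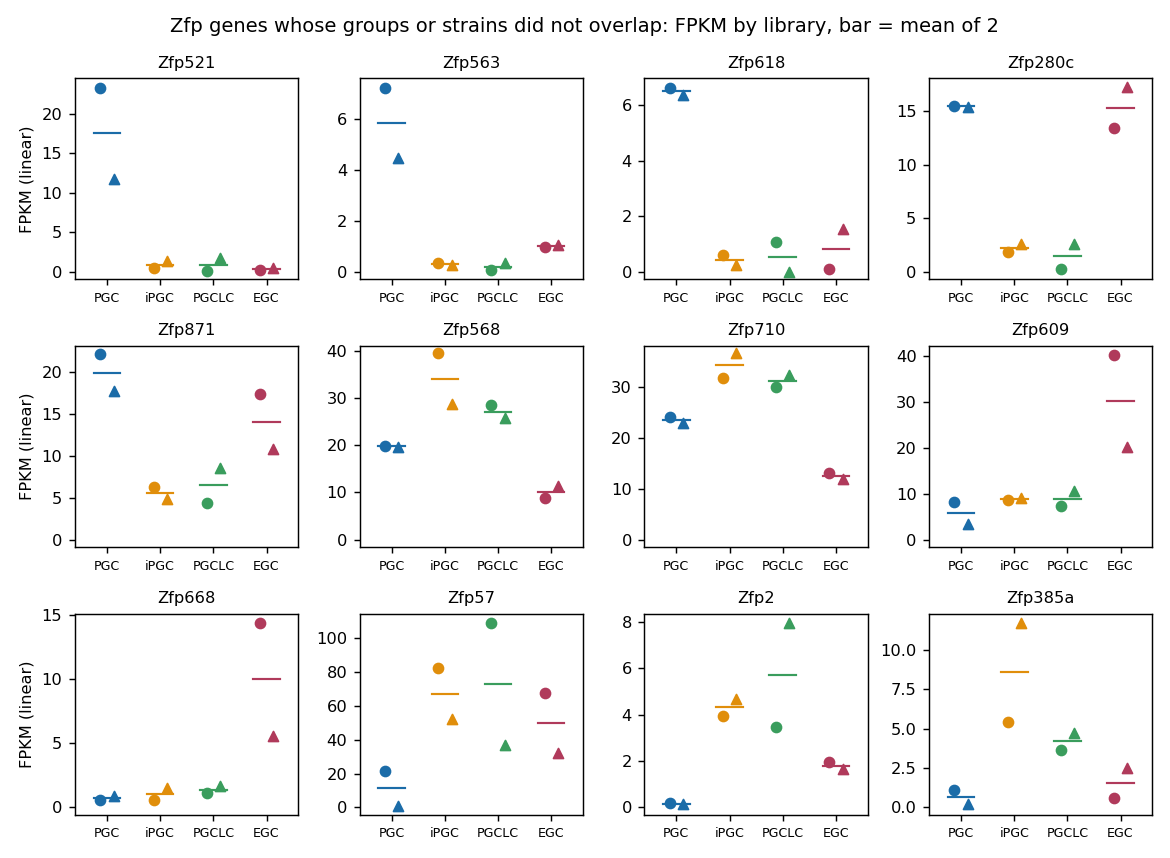
FPKM of 12 Zfp genes in each library on linear axes (circle, library 1 or EGC line 4; triangle, library 2 or EGC line 7; bar, mean of 2), in groups PGC, iPGC, PGCLC and EGC. Zfp521, Zfp563 and Zfp618 are high in PGCs, Zfp609 and Zfp668 in EGCs, Zfp280c and Zfp871 in both, and Zfp57 and Zfp2 are lowest in PGCs.

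The sequences before the start sites of these genes are shown because the Zfp280 relatives and Zfp871 shared or did not share the split by strain and origin. They come from RefSeq on GRCm38.p6, read 5′ to 3′ on the gene's strand up to the first listed start, without bases inside the GENCODE gene. Capitals mark CpG, the dinucleotide that carries DNA methylation. The stretches are chrX:48594620-48594869 for Zfp280c, chr9:72274638-72274859 for Zfp280d, chr10:76032362-76032611 for Zfp280b and chr17:32788288-32788537 for Zfp871.
Zfp280c: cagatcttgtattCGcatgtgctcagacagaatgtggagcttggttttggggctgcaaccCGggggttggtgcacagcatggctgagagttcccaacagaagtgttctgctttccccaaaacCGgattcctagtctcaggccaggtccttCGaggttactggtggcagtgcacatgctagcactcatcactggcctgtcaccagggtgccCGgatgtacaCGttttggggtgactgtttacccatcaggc
Zfp280d: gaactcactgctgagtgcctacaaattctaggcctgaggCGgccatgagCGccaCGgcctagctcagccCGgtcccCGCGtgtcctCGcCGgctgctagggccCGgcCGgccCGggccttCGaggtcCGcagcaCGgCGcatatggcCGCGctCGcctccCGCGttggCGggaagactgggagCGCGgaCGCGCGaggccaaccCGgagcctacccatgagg
Zfp280b: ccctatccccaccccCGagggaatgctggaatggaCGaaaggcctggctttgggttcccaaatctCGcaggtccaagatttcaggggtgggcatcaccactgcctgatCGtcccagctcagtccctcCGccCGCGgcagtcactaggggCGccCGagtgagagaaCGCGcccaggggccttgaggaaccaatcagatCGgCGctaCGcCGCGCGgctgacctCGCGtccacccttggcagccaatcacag
Zfp871: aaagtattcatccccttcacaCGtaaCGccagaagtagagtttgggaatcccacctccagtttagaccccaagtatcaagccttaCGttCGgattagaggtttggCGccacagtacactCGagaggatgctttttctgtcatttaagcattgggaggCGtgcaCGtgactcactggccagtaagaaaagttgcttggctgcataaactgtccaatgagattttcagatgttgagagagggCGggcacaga
Zfp280c has 6 CpG and Zfp871 has 9 in 250 bases, while Zfp280d has 27 in 222 bases and Zfp280b has 19 in 250. The stretches of Zfp280d and Zfp871 adjoin the GENCODE gene. That of Zfp280c begins at 48594620, with the gene's edge at 48594504, and that of Zfp280b ends at 76032611, before the gene's start at 76032650. The CpG counts are thus not from like distances to the genes.

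Across the 233 members matched to a RefSeq start, the 250 bases before it held a median of 12 CpG, and those of 131 KRAB members 9, against 16 over 8494 tested genes and 6 over all 27025 promoters listed. Some short motifs were searched on both strands. TGCCGC, the core that ZFP57 binds when methylated, was in 29 members (12.4%), 14.5% of tested genes and 8.57% of all promoters. GGGCGG, the SP1 box, which can overlap it, was in 42.9%, 62% and 33%. CACGTG, the E-box, was in 7.3%, 8.79% and 6.04%, and CCGGAAG, an ETS core, in 17.2%, 14.7% and 7.07%. A match is a string of letters and no evidence of binding.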

How the data were processed

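RNA was measured in 8 libraries of 4 groups. Per the labels, RNA was amplified from small cell numbers and sequenced as 50-base reads in 2 lanes, with 2 biological replicates a group. The p-values rest on few samples and on a spread pooled over all 4 groups, not on that of the groups compared alone. The authors deposited FPKM per gene. TopHat2, Cufflinks and GRCm38 (mm10) are named per the submitters' processing notes. For versions, annotation and strand use, the entry is "not given in the sources used here", and reads shared by similar Zfp genes may be divided. FPKM is no count and exact depth is unknown. A listed 0 can be a failed estimate, values under 1e-04 were counted as 0, and no fold is given against 0. The table had 20171 entries, and for each of 20153 gene identifiers the entry with the highest mean was kept.

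The 11083 genes that reached 1 FPKM in 2 or more libraries were fitted with limma 3.58.1 (R 4.3.3; trend and robust) on log2(FPKM + 1), a scale that understates changes of low genes. All 8 libraries shared 1 spread per gene, with 4 residual degrees of freedom. That spread may be too narrow for comparisons with PGCs, whose libraries differed most, and too wide between the in vitro groups. P-values were two-sided and Benjamini-Hochberg adjusted over all tested genes in each comparison, with a threshold of 0.05. The fit was also run on simulated data in which a gene had 1 spread for all 8 libraries. The PGC pair was wider than the others, so that run cannot show how the fit fares here. Coordinates, fingers and KRAB boxes (at least 10 matches to a 34-residue consensus) were read from GENCODE M21.

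Members and lists were chosen with earlier results of these data known. Named genes were the 15 highest members, the members with the largest differences in each comparison whose libraries did not overlap and whose higher group averaged at least 5 FPKM, role-list members and those nearest the limit. Zfp280b, Zfp182, Zfp185, Zfp275, Zfp711 and genes with wide replicate gaps or a split by strain were named after their values were seen. Lists also covered markers of PGCs, stem cells, blood, yolk sac, mesoderm, fibroblasts and neural cells. Replicate numbers were checked for pairing and did not pair the libraries (r of deviations 0.00707, -0.0295 and 0.0582). As alternatives the pseudocount was set to 0.1 or 5, the filter dropped or raised to 5 FPKM, values quantile normalized or set to equal library medians, the variance trend dropped, the fit limited to the compared groups, the replicate number used as a block, or each library left out. The same settings for Dnmt3l, Dnmt3b and S100a9, and the counts without the members that passed the filter through a single group, were chosen after seeing the data.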

Additional observations from a re-analysis of the deposited data

How the results depend on the processing

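With 2 libraries a group, calls of single Zfp genes rest on the PGC pair. Members called ranged from 0 to 2 for EGCs against PGCs, 0 to 2 for iPGCs against PGCs and 0 to 3 for PGCLCs against PGCs when each library was left out. A lone library is then assumed to vary like the other groups. Without PGC library 1 these were Zfp583 in EGCs, Zfp57 in iPGCs, and Zfp414, Zfp57 and Zfp583 in PGCLCs. Without PGC library 2 they were Zfp558 and Zfp672 in EGCs and iPGCs, and Zfp41, Zfp558 and Zfp809 in PGCLCs, so no gene was called in both cases. Quantile normalization gave 1 call among members, Zfp521 in EGCs against PGCs, where 94 of 11083 genes were called. The replicate block, in which the numbers share only a name, left 0 members called for iPGCs and PGCLCs against PGCs and for PGCLCs against iPGCs. Of all 11083 genes this fit called 10, 2 and 0 in these comparisons. In the other settings that kept 2 libraries a group, 0 members were called. A pseudocount of 0.1 called 110, 166 and 183 of 11083 genes in EGCs, iPGCs and PGCLCs against PGCs. Fitting only the groups compared called 0 of 11083 genes in each of these comparisons. With no filter, 0 of 15250 genes were called for PGCLCs against PGCs. Where no gene at all was called, the 0 says nothing about the members. Over 60 gene differences and 979 alternative values, 0 reversed. These 60 were picked as the largest differences between groups that did not overlap. A reversal was therefore hardly possible, and the 0 is no measure of stability.

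The members' relative medians moved across 0. With no filter they were 0.14 for EGCs, 0.09 for iPGCs and 0.13 for PGCLCs against PGCs, -0.06 for EGCs against iPGCs and -0.01 for EGCs against PGCLCs. With quantile normalization they were -0.07, -0.40 and -0.28 against PGCs, 0.08 for PGCLCs against iPGCs and 0.17 for EGCs against PGCLCs. A filter at 5 FPKM gave -0.25 for iPGCs against PGCs, a pseudocount of 0.1 gave -0.03 for PGCLCs against iPGCs, and a pseudocount of 5 gave 0.13 for EGCs against PGCLCs. With each library left out they ranged from -0.08 to 0.21 for EGCs against PGCs, -0.23 to -0.12 for iPGCs and -0.20 to -0.08 for PGCLCs against PGCs, -0.09 to 0.00 for PGCLCs against iPGCs, 0.12 to 0.22 for EGCs against iPGCs and 0.16 to 0.25 for EGCs against PGCLCs. The cause was not tested. No direction of the family as a whole is therefore given.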
